A study of Arabidopsis thaliana with 8 samples.

Results

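The comparison described here is between root tips that carry both the bzr1-D and the bin2-1 allele and root tips that carry bin2-1 alone, 4 of the 8 libraries of an Arabidopsis thaliana study. The 2 bin2-1 libraries and the 2 bzr1-D/bin2-1 libraries were taken by their titles. Seedlings of the Columbia background stood upright on 1/2 MS for 7 days (22 °C, 16 h light, 8 h dark), and RNA came from about the last 1 cm of the root. Both groups carry bin2-1, and wild-type values set beside them come from another deposited table, of roots without ABA. The protocol given for every library speaks of 3 h with or without ABA (abscisic acid) at 100 µM, and the labels of the mutant libraries do not say which applies. One library of each pair carries the word repeat, and whether its roots were grown separately is not stated, so the deposited q may reflect technical spread alone. The labels give neither the number of lines behind a genotype nor its crossing history. The deposited table holds 1 value per group, so no spread between libraries stands beside a value, and depth is unknown. Levels are in FPKM (fragments per kilobase of transcript, scaled to the library's total). Of 33557 listed genes, the 19226 with at least 1 FPKM in either group are described. The gene just inside this limit was AT2G14220, with 0.407 FPKM in bin2-1 and 1.00 FPKM in bzr1-D/bin2-1, and the gene just outside was AT2G33760, with 1.00 FPKM (0.999915 before rounding) and 0.849 FPKM.

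Brassinosteroids are steroid hormones that promote cell growth. They are sensed at the cell surface by the receptor kinase BRI1 with its partner BAK1, and the signal switches off BIN2, a GSK3-like kinase. Without hormone, BIN2 phosphorylates the transcription factors BZR1 and BES1 and keeps them from acting. The bin2-1 allele makes a hyperactive kinase that is not switched off, and bzr1-D makes a stabilised BZR1 protein. BZR1 is known to repress the genes that make the hormone, a negative feedback, and it binds the brassinosteroid response element, whose letters are CGTGCG or, in a variant, CGTGTG, and also the G-box, whose letters are CACGTG. The study's title names repression of ABI5, a transcription factor of ABA responses, by BZR1. The comparison therefore asks what a stabilised BZR1 changes in roots whose BIN2 is overactive.

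A gene is said below to have risen or fallen when q was under 0.05 in the authors' deposited table. The labels do not name the test behind it. Sizes are log2 of (bzr1-D/bin2-1 + 0.1)/(bin2-1 + 0.1) in FPKM, called the log2 ratio. This scale understates the change of genes near 0. Of 19146 genes with a p below 1, 2368 rose, which is 12.4%, and 2546 fell, which is 13.3%, so 25.7% changed in one direction or the other. Every count of rises or falls in a gene list below is to be read beside these shares. The median log2 ratio of the 19226 genes was -0.01, with 5% of genes below -1.08 and 5% above 0.98. A log2 ratio of 1 or more was found in 921 genes (4.79%) and of -1 or less in 1068 (5.55%), of which 175 and 210 did not pass q. The smallest q in the authors' deposited table, 0.000451, is shared by 2232 of these genes and cannot rank them.

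**Figure D1:**
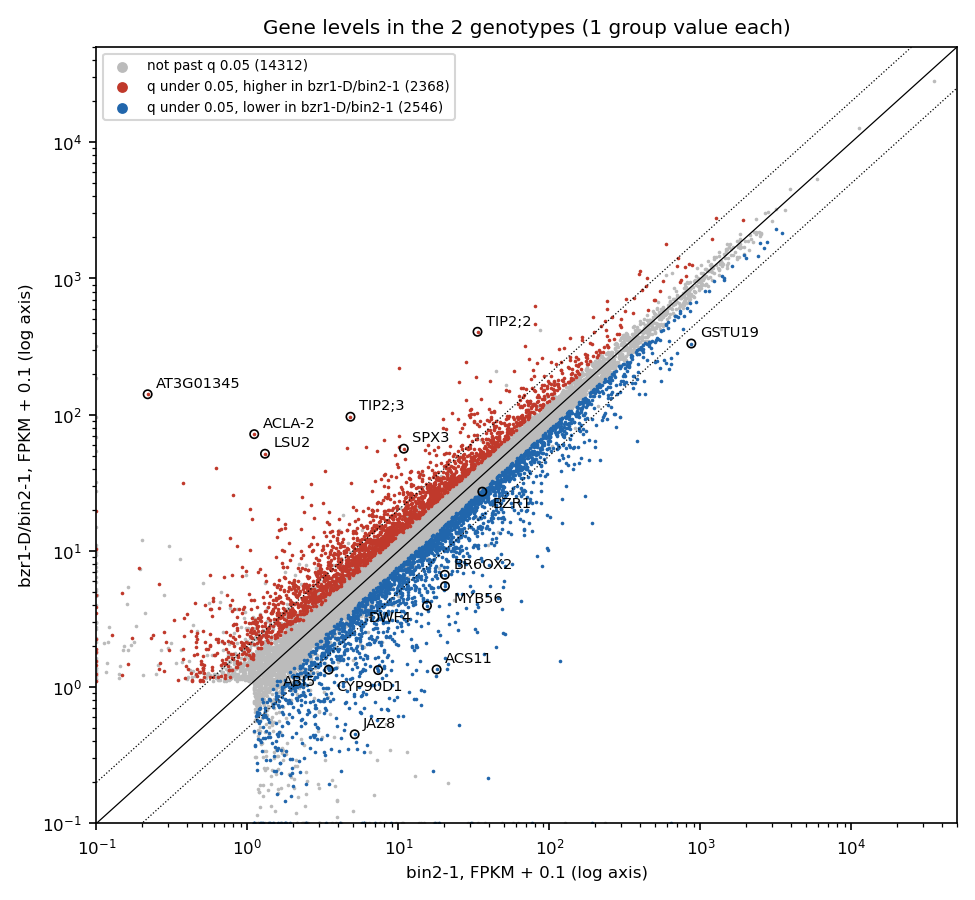
Level of each gene with at least 1 FPKM in either group in bin2-1 (x axis) and bzr1-D/bin2-1 (y axis), as FPKM + 0.1 on log axes. Each point is 1 gene with 1 group value per axis, the solid line marks equality and the dotted lines a 2-fold difference. TIP2;2, TIP2;3, LSU2 and ACLA-2 lie far above the line, and DWF4, CYP90D1, ACS11 and JAZ8 below it.

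Genes that make brassinosteroids were lower with bzr1-D at 4 of 10 genes (40.0%, against 13.3% of all genes), and 0 rose. DWF4, the rate-limiting C-22 hydroxylase, stood at 15.4 FPKM in bin2-1 and 3.86 FPKM in bzr1-D/bin2-1 (log2 ratio -1.96). CYP90D1, a C-23 hydroxylase, had 7.24 and 1.23 FPKM (-2.46). BR6OX2, the oxidase that makes castasterone and brassinolide, had 20.2 and 6.58 FPKM (-1.60), and CPD, another oxidase of the pathway, had 34.3 and 22.8 FPKM (-0.59). The 4 genes that fell all encode cytochrome P450 enzymes. Enzymes of the earlier sterol and reductase steps did not pass: the log2 ratio was 0.13 for DWF1, 0.20 for DWF5, 0.14 for STE1 and -0.14 for DET2. ROT3, which acts beside CYP90D1, had 11.6 and 10.7 FPKM and did not pass either. BR6OX1, the cytochrome P450 gene paired by name with BR6OX2, had the highest log2 ratio of the list, 0.25, and did not pass. The falls therefore did not cover every cytochrome P450 gene of the list. The list median was -0.13.

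Among genes that inactivate the hormone, 2 of 6 measured rose and 1 fell (33.3% and 16.7%, against 12.4% and 13.3% of all genes). BAS1, a C-26 hydroxylase, rose from 5.46 to 10.2 FPKM (0.89), and the acyltransferase gene BIA1 from 8.16 to 11.4 FPKM (0.48). BEN1 fell from 62.2 to 45.7 FPKM (-0.44). The glucosyltransferase gene UGT73C5 had 6.75 and 0.0626 FPKM without passing q. It has near-identical neighbours with which reads may be shared.

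Upstream of BIN2, 2 of 10 measured genes passed q, a share near the 25.7% of all genes. BRI1 had 41.1 FPKM in bin2-1 and 43.3 FPKM in bzr1-D/bin2-1, and BAK1 51.4 and 41.9 FPKM, neither past q. The gene that rose was the receptor-like kinase gene BRL2 (14.0 to 22.8 FPKM, 0.70), and the gene that fell was the receptor gene BRL3 (5.95 to 2.44 FPKM, -1.25). The kinase genes BIN2, BIL1 and BIL2 had log2 ratios of 0.08, 0.10 and -0.10, with none past q. BIN2 itself stood at 68.9 and 72.9 FPKM. The alleles act on the protein, so these levels do not check the genotype labels.

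The BZR1 family fell at 3 of 6 genes (50.0%, against 13.3% of all genes). BEH2 went from 152 to 105 FPKM (-0.54), BEH3 from 18.3 to 12.5 FPKM (-0.55) and BZR1 itself from 35.8 to 27.1 FPKM (-0.40). BES1, the closest relative of BZR1, had 28.5 and 34.5 FPKM and did not pass, at 0.28. Among 11 measured transcription factor genes described elsewhere as brassinosteroid or BZR1 targets, 2 rose and 4 fell. These are 18.2% and 36.4%, against 12.4% and 13.3% of all genes. MYB30 fell from 5.66 to 1.22 FPKM (-2.13), and BRAVO (MYB56), which restrains division of quiescent centre cells, from 20.2 to 5.42 FPKM (-1.88). HAT22 was the next at -0.72. MYBL2 rose from 0.959 to 3.65 FPKM (1.82). The bHLH genes linked to brassinosteroid growth gave 0 rises and 0 falls among the 6 measured of 11, and BEE1, BEE2, PRE1, PRE5 and HBI1 lay under 1 FPKM in both groups. PRE6 stood at 46.1 and 43.8 FPKM, and BEE3 at 0.0838 and 2.71 FPKM without passing.

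ABI5 had 3.35 FPKM in bin2-1 and 1.24 FPKM in bzr1-D/bin2-1, and it fell at a log2 ratio of -1.36 (q = 0.000451 in the authors' deposited table). Of the clade A phosphatases, which hold ABA signalling off, PP2CA rose from 16.9 to 25.8 FPKM, and ABI1, ABI2, HAB1, HAB2 and HAI1 lay between -0.43 and 0.07 without passing.

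The promoters of 4 genes that fell are shown because each holds 2 or more of the letter strings known for BZR1 within 250 bases of the annotated start. Such matches were not limited to genes that fell: DWF5 and BEH4, which did not pass, each hold 2 CACGTG in this window. They are ABI5 (chr2:15207637-15207886, minus strand), BZR1 (chr1:28185254-28185503, plus strand), BEH2 (chr4:17334356-17334605, minus strand) and ACS11, an ethylene synthesis gene (chr4:4886712-4886961, plus strand), in RefSeq's TAIR10.1. Each sequence runs 5′ to 3′ on the strand of the gene and ends at the base before its start. Capitals mark the letters CGTGCG, the letters CGTGTG and the G-box CACGTG on either strand. Read on the other strand, the first is CGCACG and the next one is CACACG.
ABI5: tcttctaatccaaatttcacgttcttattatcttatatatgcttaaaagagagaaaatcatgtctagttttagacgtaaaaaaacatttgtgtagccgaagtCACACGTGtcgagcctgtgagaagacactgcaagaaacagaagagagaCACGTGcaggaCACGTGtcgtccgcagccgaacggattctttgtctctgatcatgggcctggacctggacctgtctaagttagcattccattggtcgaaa
BZR1: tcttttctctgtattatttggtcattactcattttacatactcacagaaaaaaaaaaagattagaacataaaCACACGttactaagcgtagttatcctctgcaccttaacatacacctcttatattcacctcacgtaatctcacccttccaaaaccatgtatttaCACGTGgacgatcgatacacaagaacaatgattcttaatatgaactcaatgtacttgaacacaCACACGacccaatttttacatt
BEH2: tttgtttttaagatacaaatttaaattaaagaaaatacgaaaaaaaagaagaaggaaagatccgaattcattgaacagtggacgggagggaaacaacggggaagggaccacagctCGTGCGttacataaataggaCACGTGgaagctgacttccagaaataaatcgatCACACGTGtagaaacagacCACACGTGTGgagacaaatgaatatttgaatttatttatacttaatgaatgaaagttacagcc
ACS11: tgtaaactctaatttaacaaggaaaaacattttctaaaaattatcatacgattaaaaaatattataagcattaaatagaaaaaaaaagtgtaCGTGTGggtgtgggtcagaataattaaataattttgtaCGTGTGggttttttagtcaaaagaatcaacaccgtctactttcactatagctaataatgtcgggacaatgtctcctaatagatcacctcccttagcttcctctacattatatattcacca
ABI5 holds 3 CACGTG and 1 CGTGTG, and the first CACGTG overlaps the CGTGTG in a run read as CACACGTG. BZR1 holds 2 CGTGTG and 1 CACGTG. BEH2 holds 1 CGTGCG, 3 CGTGTG and 3 CACGTG, several of them overlapping. ACS11 holds 2 CGTGTG.

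No match lay in the 250 bases before DWF4, CYP90D1, BR6OX2 or CPD. Within 1000 bases, DWF4 held 1 CGTGCG, read on the other strand, 458 bases before its start (chr3:18817846-18817875), and CYP90D1 held 1 CGTGCG 801 bases before its start (chr3:4501704-4501733, TAIR10.1 for both, minus strand). CPD and BR6OX2, which also fell, held none of the strings in the 1000 bases before the annotated start. Bases after that start were not searched, so sites there would be missed. STE1, which did not pass, held 1 CGTGCG, 422 bases before its start, and 3 CACGTG. The sites of DWF4 and CYP90D1 are shown as the matches found before synthesis genes that fell.
DWF4 site: tctgtctttgacCGCACGctcgtgtagggg
CYP90D1 site: ctaatggaatttCGCACGaaggcgcaccca
Over all 19016 measured genes with a full 250-base window, 1.78% held CGTGCG, 5.63% held CGTGTG and 7.26% CACGTG. The variant CGTGTG stood in 7.57% of the promoters of genes that fell, in 5.29% of those of genes that rose and in 5.33% of those of genes not called. Among genes that fell at least 2-fold it stood in 9.23% (79 of 856), and among those that rose at least 2-fold in 5.50% (41 of 745). CACGTG stood in 7.92% of promoters of genes that fell, 6.14% of those of genes that rose and 7.33% of those of genes not called. CGTGCG stood in 1.81%, 1.23% and 1.86%, so it was no more common among genes that fell than among genes not called. Among genes that fell at least 2-fold CACGTG stood in 7.13%, under the 7.26% of all measured genes, and CGTGCG in 18 of 856. Among those that rose at least 2-fold CACGTG stood in 41 of 745 and CGTGCG in 7 of 745. Mean GC content of the windows was 31.1% for genes that fell, 30.6% for genes that rose and 31.7% for genes not called. These shares are descriptions with no test, and a match is not a bound site.

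**Figure D2:**
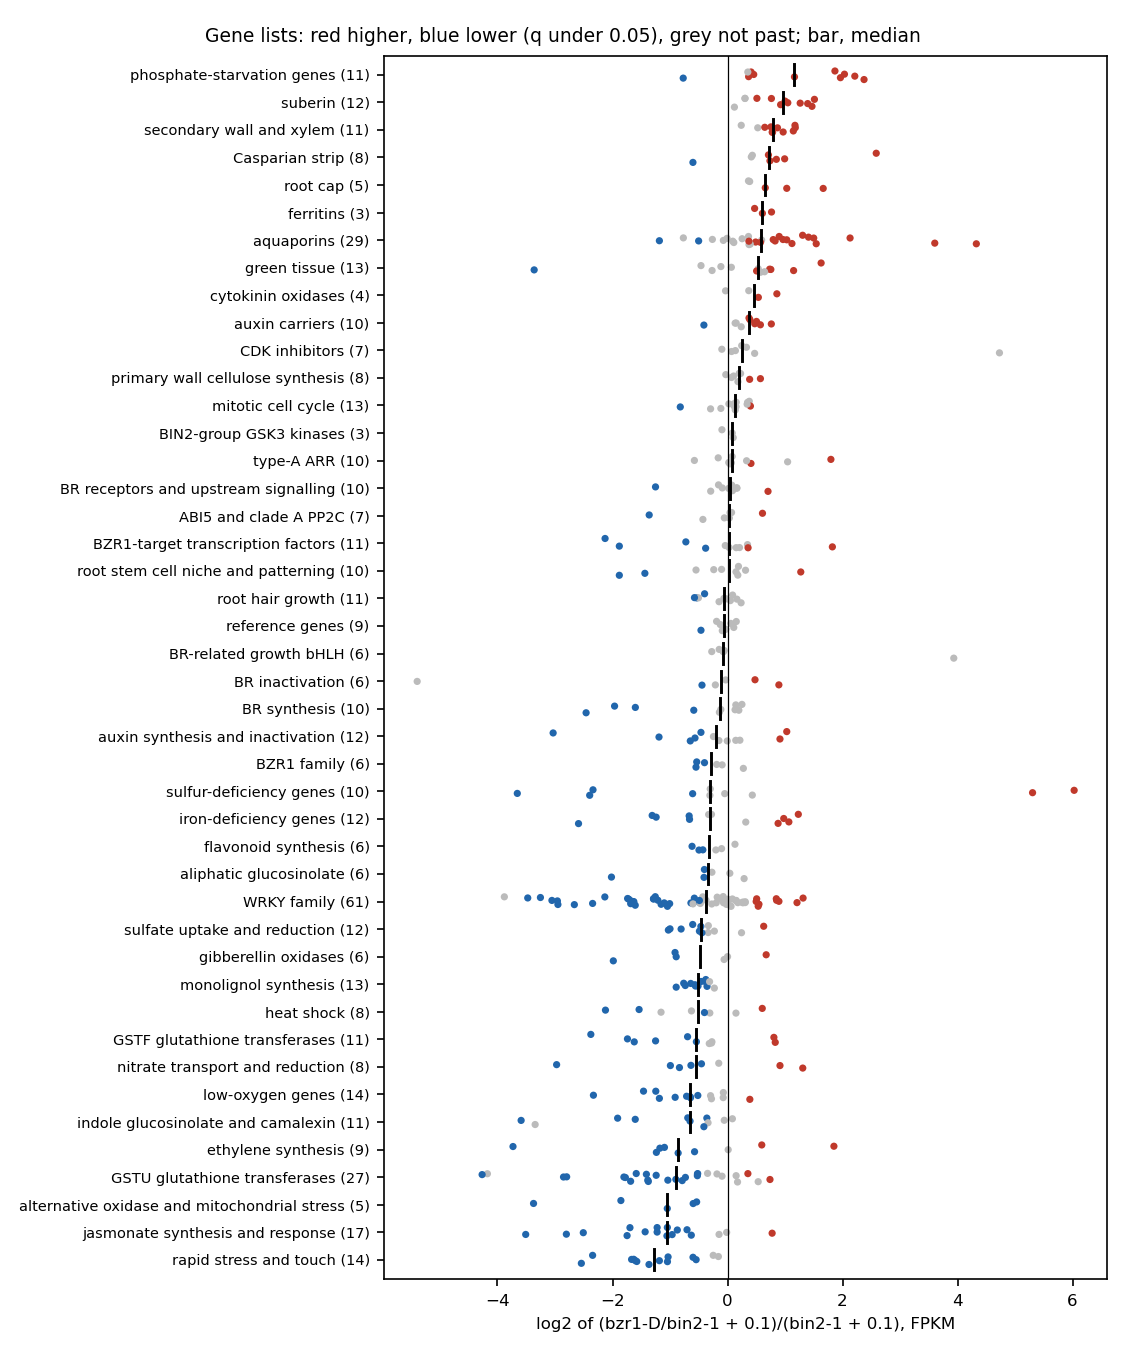
Log2 ratio of every measured member (points) of the 40 gene lists and of 4 families, with the number of measured members after each name and the list median as a black bar. Red points rose and blue points fell at q under 0.05, and grey points did not pass. Phosphate-starvation, suberin and secondary wall genes stand at the top, and rapid stress, jasmonate and alternative oxidase genes at the bottom.

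Aquaporins, channels for water and small solutes, were mostly higher with bzr1-D. Of 34 genes of the family 29 reached 1 FPKM, and of these 16 rose and 2 fell, against 12.4% and 13.3% of all genes. TIP2;3, a channel of the vacuole membrane, had 4.71 FPKM in bin2-1 and 96.5 FPKM in bzr1-D/bin2-1 (4.33). TIP2;2 had 33.3 and 406 FPKM. Both stood above their wild-type level in the other table, which was 23.6 and 155 FPKM. At the plasma membrane, PIP2;4 went from 40.3 to 177 FPKM (2.13) and PIP1;5 from 51.7 to 151 FPKM (1.54). The channel with the highest level, TIP1;2, went from 1274 to 2770 FPKM (1.12), and PIP2;2 from 241 to 682 FPKM. Summed over the family, levels were 4615 FPKM in bin2-1 and 9139 FPKM in bzr1-D/bin2-1. The 2 that fell were NIP2;1, also a low-oxygen gene (14.1 to 6.14 FPKM), and PIP2;5 (7.69 to 5.40 FPKM).

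Genes induced when phosphate is short rose together, at 9 of 11 measured, with 1 fall and a list median of 1.16. SPX3, a sensor of phosphate status, went from 10.8 to 56.2 FPKM (2.37), and PHO1;H1, a phosphate exporter gene, from 6.94 to 32.5 FPKM (2.21). The enzymes that replace phospholipids by galactolipids and sulfolipids also rose: MGD3 from 6.61 to 27.4 FPKM (2.03), MGD2 from 3.42 to 13.6 FPKM (1.96) and SQD2 from 29.8 to 109 FPKM (1.87). SPX1, the list member with the highest level, stood at 165 and 369.7 FPKM. The member that fell was the phosphate importer gene PHT1;1, from 95.6 to 56.0 FPKM (-0.77), a gene with near-identical neighbours. AT5G03545, annotated as expressed in response to phosphate starvation, rose from 399 to 1141 FPKM. In wild type in the other table, SPX3 had 32.5 FPKM, PHO1;H1 37.8 FPKM and MGD3 47.4 FPKM. That table and this one share the bin2-1 libraries and were scaled apart, with bin2-1 values here 1.04 times those there.

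Genes of lignified xylem walls rose at 9 of 11 and fell at 0 (list median 0.78). The secondary wall cellulose synthase genes went from 8.94 to 19.9 FPKM for CESA4, from 7.49 to 14.7 FPKM for CESA7 and from 5.93 to 13.5 FPKM for CESA8. COBL4, a COBRA-like protein linked to secondary walls, rose most (3.85 to 8.85 FPKM, 1.18), and the regulator gene MYB46 rose from 3.32 to 5.79 FPKM. VND7, the vessel-fate regulator, had 1.82 and 2.16 FPKM and did not pass. By contrast the enzymes that make lignin monomers fell at 11 of 13 and rose at 0 (list median -0.51). C4H went from 356 to 192 FPKM (-0.89), F5H from 48.9 to 28.8 FPKM (-0.76), PAL2 from 121 to 72.4 FPKM (-0.73) and CYP98A3 from 153 to 98.1 FPKM (-0.64). The enzyme with the highest level, CCoAOMT1, stood at 1933 and 1488 FPKM.

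Barrier genes of the endodermis also rose. Suberin genes rose at 9 of 12 measured and fell at 0 (median 0.96), among them CYP86A1, a fatty acid hydroxylase, at a log2 ratio of 1.51, FAR4, a fatty acyl reductase, from 6.60 to 18.4 FPKM, and the exporter gene ABCG6 from 21.7 to 52.1 FPKM (1.26). Of 8 genes that build the Casparian strip 5 rose and 1 fell: CASP5 had a log2 ratio of 2.59, while MYB36, the regulator that switches on this set, went from 18.7 to 12.3 FPKM (-0.60). CASP4 and PER64 had log2 ratios of 0.41 and 0.43 without passing.

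Several of these genes mark cell types, and in bulk RNA more cells of a type and more RNA per cell cannot be told apart. Summed levels of the 6 xylem markers were 126 FPKM in bin2-1 and 222 FPKM in bzr1-D/bin2-1, with 5 higher and 0 lower. The 5 endodermis markers summed to 266 and 433 FPKM, with 4 higher and 1 lower. The 5 root cap markers summed to 41.5 and 74.1 FPKM, with 3 higher and 0 lower, among them BFN1, a nuclease of dying root cap cells, from 5.29 to 17.0 FPKM. The 4 markers of dividing cells summed to 69.8 and 85.5 FPKM with 1 higher, the 5 root hair markers to 444 and 404 FPKM with 2 lower, and the 5 markers of the root tip to 66.8 and 71.7 FPKM with 1 higher and 1 lower. Of the 11 green tissue markers 9 reached 1 FPKM, summing to 53.8 and 66.0 FPKM over all 11, with 4 higher and 1 lower. No marker was listed at 0 in both groups. The part of cell type proportions in the results above was not tested.

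**Figure D3:**
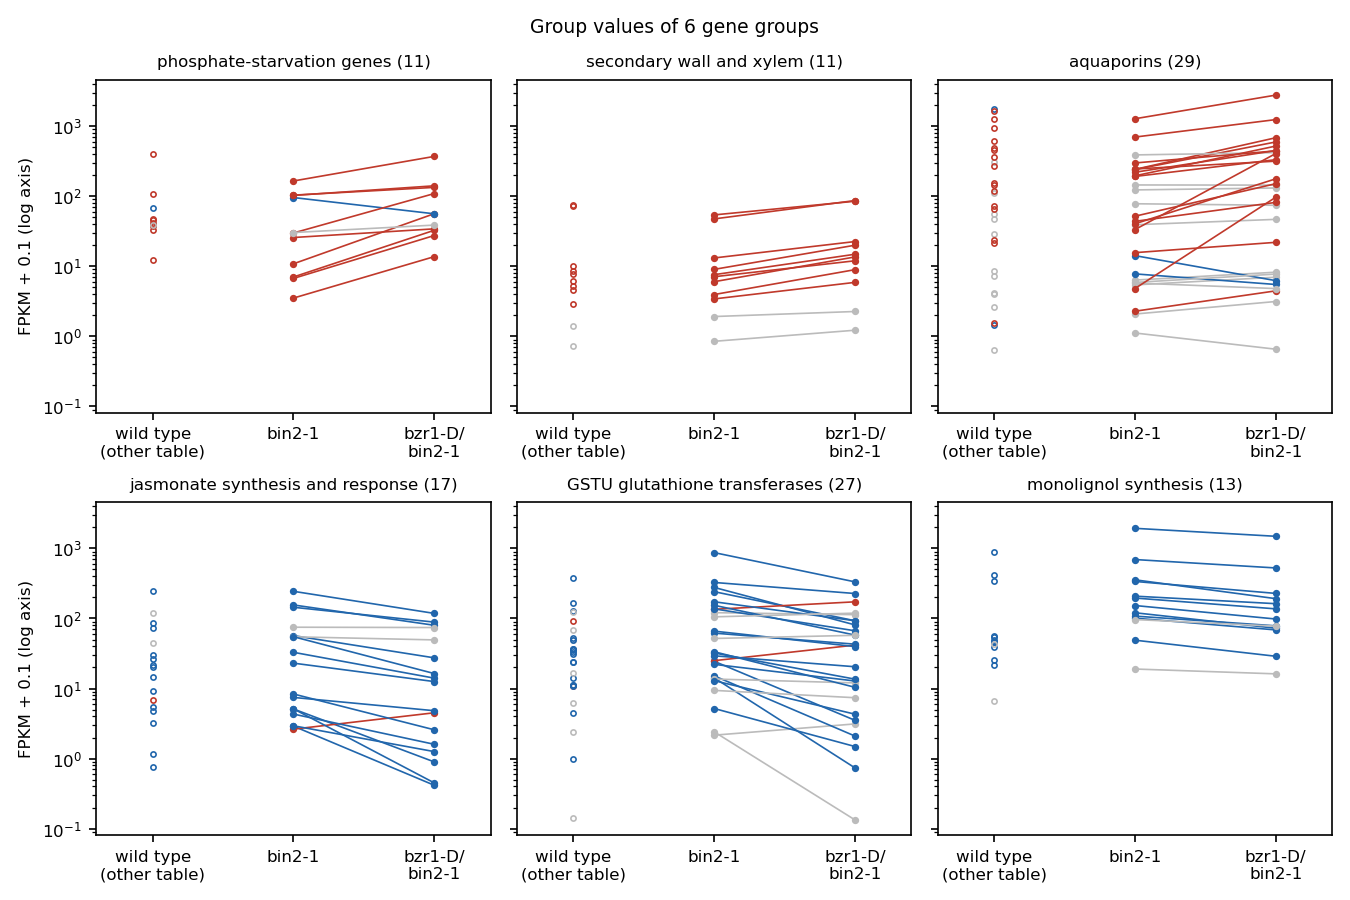
FPKM + 0.1 on a log axis for every measured member of 6 gene groups in bin2-1 and bzr1-D/bin2-1, joined by lines, with the wild-type value of a separately scaled table as open circles. Lines are red where the gene rose, blue where it fell and grey where it did not pass. In the upper panels 9 of 11, 9 of 11 and 16 of 29 lines are red, and in the lower panels 14 of 17, 18 of 27 and 11 of 13 are blue.

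Genes that respond within minutes to touch and stress fell at 12 of 14, with 0 rises and a list median of -1.28, the lowest of the 40 lists. TCH4, a touch-induced wall enzyme, went from 48.2 to 8.20 FPKM (-2.54) and WRKY40, a regulator of defence and ABA responses, from 44.7 to 8.71 FPKM (-2.35). ERF6 went from 87.9 to 27.6 FPKM (-1.67) and ZAT12 from 199.6 to 64.4 FPKM (-1.63). TCH3 and WRKY53 did not pass, at -0.25 and -0.16. The WRKY family as a whole had 26 falls and 9 rises among 61 measured genes. Among its larger falls were those of WRKY38 (-3.47), WRKY70 (-3.25) and WRKY51 (-3.05), all known from salicylic acid responses. The lowest log2 ratio of any measured member, past q or not, was -3.88. WRKY51 stood at 50.0 and 5.94 FPKM, and WRKY70 at 24.8 and 2.52 FPKM. WRKY41 and WRKY56 rose, at 1.31 and 1.21.

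Jasmonate genes fell at 14 of 17 measured and rose at 1 (median -1.05). JAZ proteins repress jasmonate responses and are themselves induced by the hormone. JAZ8 had 5.03 FPKM in bin2-1 and 0.351 FPKM in bzr1-D/bin2-1 (-3.51), and JAZ10 54.8 and 16.3 FPKM (-1.75). Over the whole JAZ family 8 of 12 fell and 0 rose, with JAZ3, JAZ4, JAZ11 and JAZ12 not past q. The lipoxygenase genes of hormone synthesis were lower too, LOX3 from 2.81 to 0.317 FPKM and LOX4 from 5.01 to 0.798 FPKM. MYC2, the transcription factor that JAZ proteins hold back, stood at 74.9 and 74.1 FPKM and did not pass.

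Ethylene synthesis genes fell at 6 of 9 measured and rose at 2 (median -0.86). ACS11, whose promoter is printed above, went from 17.8 to 1.25 FPKM (-3.73), and ACS7 from 7.42 to 3.09 FPKM (-1.24). ACS5 and ACO1 rose, ACS5 from 0.294 to 1.32 FPKM and ACO1 from 37.7 to 57.1 FPKM.

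Genes of mitochondrial stress fell at 5 of 5 measured of 7. AOX1D, an alternative oxidase, went from 8.57 to 0.737 FPKM (-3.37), OM66 from 82.0 to 22.6 FPKM (-1.85) and AOX1A from 88.4 to 42.7 FPKM (-1.05). Glutathione transferases, which conjugate toxic compounds, were lower in the tau (GSTU) and phi (GSTF) classes: 18 of 27 measured GSTU genes fell and 2 rose, and 6 of 11 GSTF genes fell and 2 rose. GSTU19 had the highest level of the GSTU genes, at 870.2 FPKM in bin2-1 and 333 FPKM in bzr1-D/bin2-1 (-1.39). GSTU11 went from 14.1 to 0.638 FPKM (-4.27), and GSTU28 rose from 24.9 to 41.6 FPKM (0.74). Tandem members of this family may share reads. Glucosyltransferase genes of the UGT family had 16 falls and 11 rises among 49, with UGT73B4 from 89.6 to 7.65 FPKM and UGT74E2 from 96.0 to 10.4 FPKM.

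Indole glucosinolate and camalexin genes, which make defence compounds from tryptophan, fell at 7 of 11 and rose at 0. CYP71A12 went from 32.2 to 2.59 FPKM (-3.59) and PAD3, the last enzyme of camalexin synthesis, from 16.3 to 5.28 FPKM (-1.60). The regulator genes MYB34 and MYB122 did not pass, at -0.06 and 0.08. Aliphatic glucosinolate genes fell at 3 of 6 measured, and flavonoid genes at 3 of 6, among them the chalcone synthase gene TT4 from 445 to 330.2 FPKM, with 0 rises in either list. Low-oxygen genes fell at 9 of 14 and rose at 1. PDC1, a fermentation enzyme, had 87.4 and 31.7 FPKM (-1.46), against 2946 FPKM in wild type in the other table. HRE2, a transcription factor induced by low oxygen, went from 39.8 to 7.83 FPKM (-2.33). In the heat shock list 3 of 8 measured fell and 1 rose.

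Wild-type values from the other table lay on either side of these falls. TCH4 had 596 FPKM there and ADH1, an alcohol dehydrogenase, 5208 FPKM, both above their level in bin2-1 (83.8 FPKM for ADH1) and in bzr1-D/bin2-1 (44.5 FPKM). GSTU19 had 375 FPKM, ACS11 6.12 FPKM and CYP71A12 0.223 FPKM, each below its level in bin2-1.

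Nutrient genes other than those of phosphate divided. Sulfur assimilation fell at 7 of 12 measured and rose at 1: the reductase gene APR3 went from 123 to 60.0 FPKM (-1.03) and the vacuolar sulfate exporter gene SULTR4;2 from 9.56 to 4.73 FPKM. Among 10 markers of sulfur deficiency 4 fell and 2 rose. BGLU28 went from 7.09 to 0.471 FPKM (-3.66) and GGCT2;1, a glutathione-degrading enzyme, from 47.5 to 9.31 FPKM (-2.34). The members that rose were LSU2 and LSU4, which lie next to each other on chromosome 5 and may share reads: LSU2 had 1.21 FPKM in bin2-1 and 51.6 FPKM in bzr1-D/bin2-1 (5.30), and LSU4 0.522 and 40.5 FPKM (6.03). The related genes LSU1 and LSU3, neighbours on chromosome 3, had log2 ratios of 0.43 and -0.31 and did not pass. In wild type in the other table LSU2 had 6.76 FPKM and LSU4 1.90 FPKM, under their level in bzr1-D/bin2-1.

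Nitrate genes fell at 5 of 8 measured and rose at 2. NRT1.8, which unloads nitrate from xylem sap, went from 18.7 to 2.30 FPKM (-2.97), while NRT1.5, which loads it into the xylem, went from 124 to 308 FPKM (1.31). The sensor and transporter gene NRT1.1 rose from 79.8 to 150.2 FPKM and the reductase gene NIA2 fell from 112 to 56.1 FPKM. Iron-deficiency genes gave 4 rises and 5 falls among 12 measured. NAS4, a nicotianamine synthase gene, and F6'H1, a coumarin synthesis gene, fell, with log2 ratios of -2.59 and -1.31. BHLH39 fell from 7.06 to 4.43 FPKM (-0.66), and BTS and MYB10 fell at -0.67 and -1.24. BHLH101 and FIT, regulators of iron uptake, rose from 1.48 to 3.62 and from 2.27 to 4.87 FPKM, and the iron importer gene IRT1 rose from 11.9 to 22.1 FPKM. BHLH38 rose at 0.98. The iron-storage ferritin genes FER1, FER3 and FER4 rose as well, at 3 of 3, FER1 from 132 to 225 FPKM.

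Auxin carriers rose at 6 of 10 and fell at 1, by small ratios: PIN4 had 0.76, LAX2 0.57 and PIN3 0.50, and ABCB4 -0.41. For auxin synthesis and inactivation 2 of 12 rose and 5 fell. GH3.3, an enzyme that conjugates auxin, went from 33.0 to 3.94 FPKM (-3.03), and GH3.17 from 24.4 to 49.9 FPKM (1.03). Gibberellin oxidase genes had 3 falls and 1 rise among 6 measured, with GA3OX2 at -1.99. Type-A response regulators of cytokinin had 2 rises among 10, ARR17 from 2.06 to 7.42 FPKM, and cytokinin oxidases 2 rises among 4 measured.

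In the stem cell niche the quiescent centre gene WOX5 fell from 11.2 to 4.06 FPKM (-1.44) and PLT1 rose from 3.31 to 8.14 FPKM (1.27), while PLT2, SCR and SHR lay between 0.15 and 0.31 without passing. Together with BRAVO, this list had 1 rise and 2 falls among 10. Mitotic genes passed at 2 of 13, CDKB2;1 up (0.40) and CYCD4;1, a D-type cyclin, down (-0.82), and 0 of 7 CDK inhibitor genes passed, SMR5 being listed at 0 in bin2-1 and at 2.55 FPKM in bzr1-D/bin2-1. These shares lie under the 25.7% of all genes. Primary wall cellulose genes had 2 rises among 8 measured, CESA2 at 0.57 and KOR1 at 0.38, so 25.0% passed, near the 25.7% of all genes. Root hair genes had 3 falls among 11, the largest of COW1 (-0.57). Of 9 reference genes 1 passed, GAPC1 at -0.46. Of the wall enzymes, XTH genes had 12 rises and 7 falls among 27 (44.4% and 25.9%). Expansins of the EXPA group had 1 rise and 3 falls among 16 (6.25% and 18.75%). Aux/IAA genes had 4 rises and 6 falls among 25, SAUR genes 6 and 7 among 39, CYP71 genes 4 and 7 among 20, HSP genes 0 and 8 among 25, and peroxidases named PER 0 and 1 among 2.

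Of the 12 largest rises, LSU4, LSU2 and TIP2;3 belong to the groups above, and the 12 largest falls lie outside them. AT3G01345 had 0.118 FPKM in bin2-1 and 141 FPKM in bzr1-D/bin2-1 (log2 ratio 9.34), and it was listed at 0 in wild type in the other table. ACLA-2, which encodes part of ATP-citrate lyase, had 1.01 and 71.9 FPKM (6.02), against 59.01 FPKM in wild type. AT1G35320 had 0.275 and 31.3 FPKM (6.39), against 15.7 FPKM in wild type. AT1G67870 had 9.98 and 221 FPKM, against 121 FPKM, and CYP705A27 0.935 and 20.2 FPKM, against 22.5 FPKM. In each of these the level in bin2-1 was far under wild type, which was not so for AT3G01345. They lie on chromosome 1, as do AT1G45165, AT1G52347, AT1G52905 and AT1G65370 among the 12 largest rises. AT1G52347, a non-coding RNA gene, and AT1G45165 were listed at 0 in bin2-1 and had 19.6 and 10.1 FPKM in bzr1-D/bin2-1, against 17.0 and 9.22 FPKM in wild type. In the other direction AT4G16215, AT4G19239, AT4G19240, AT4G12280, AT1G19550 and the small nucleolar RNA gene SNOR105 were listed at 0 in bzr1-D/bin2-1, with 190, 76.1, 30.2, 18.4, 17.3 and 641 FPKM in bin2-1. AT4G16215, AT4G19239 and AT4G19240 were also listed at 0 in wild type in the other table. The retroelement SADHU3-2 had 117 and 1.47 FPKM (-6.23), and 0.0244 FPKM in wild type. ARD3, an enzyme of methionine salvage, had 25.0 and 0.425 FPKM (-5.58), and BCB, a blue copper protein, 43.9 and 1.86 FPKM (-4.49). Among genes with at least a 2-fold rise, the highest levels after TIP1;2 were of DR4, a protease inhibitor-like gene, from 590 to 1804 FPKM (1.61). Among those with at least a 2-fold fall they included GSTU19, AT1G78850, a lectin gene (704 to 282 FPKM), and PLAT1 (623 to 217 FPKM), beside SNOR105.

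The share of changed genes differed between chromosomes, which is described here with no test. On chromosome 1, 15.0% of 5029 tested genes rose and 14.8% fell, while the rises on chromosomes 2 to 5 ran from 11.1% to 12.5% and the falls from 12.3% to 13.2%. Genes past q that changed at least 4-fold made up 2.15% of all tested genes of the 5 chromosomes, 3.20% on chromosome 1 and 1.53% on chromosome 3. In blocks of locus numbers the share was 5.65% (40 of 708) for AT1G6, which holds AT1G60020, ACLA-2, AT1G63390 and AT1G65370, and 4.28% for AT1G5. The BZR1 locus, AT1G75080, lies in the block AT1G7, at 2.08%. BIN2, AT4G18710, lies in AT4G1, at 2.81%. By gene type, 12.4% of 18595 protein-coding genes rose and 13.4% fell, as did 15.5% and 16.7% of 84 pseudogenes and 8.51% and 17.0% of 94 transcribed pseudogenes. By mean level of both groups, the share that fell was 21.1% of 402 genes under 1 FPKM, 11.9% of 7074 genes between 5 and 20 FPKM and 17.5% of 1725 genes over 100 FPKM, and the share that rose was 13.9%, 12.6% and 10.4%. A gene with a mean under 1 FPKM was kept only if 1 group reached 1 FPKM while the other lay below it. A difference between the groups is therefore built into that class by the filter, and its shares cannot be read as an effect of level.

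**Figure D4:**
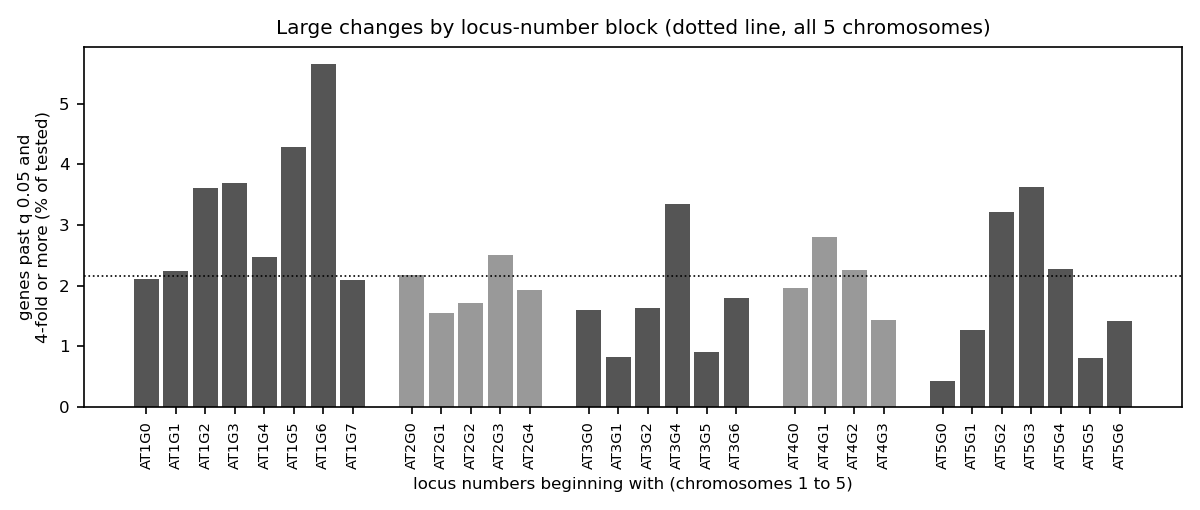
Share of tested genes that passed q and changed at least 4-fold (y axis, percent) in blocks of locus numbers along chromosomes 1 to 5 (x axis), for blocks with at least 100 tested genes. The dotted line marks the 2.15% of all 5 chromosomes, and the block AT1G6 is highest at 5.65%.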

How the data were processed

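RNA of 8 root libraries, 4 groups of 2, was sequenced after TruSeq library preparation on a HiSeq2000, per the labels' protocols; the 4 libraries of bin2-1 and bzr1-D/bin2-1 are used here, and group values of wild type without ABA are set beside them. The tools TopHat and Cufflinks and the build TAIR10 are listed, per the submitters' processing notes, with no version, setting or strand of counting, so overlapping or antisense genes may share reads. The authors' 1 value per gene and group is taken as FPKM, since Cufflinks is named and the headers name only groups; they sum to 1001190 in bin2-1 and 966277 in bzr1-D/bin2-1. The authors deposited each p-value and q-value used here. With 1 value per group no test of the spread between libraries, no count model and no interval could be computed, and p and q speak for these libraries only.

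Log2 ratios used a pseudocount of 0.1 FPKM, and genes needed 1 FPKM in either group. Gene symbols, types and promoters come from RefSeq's TAIR10.1, which holds 32810 of the 33557 identifiers. Motifs were searched on both strands in 250 bases before the annotated start. Members of 40 gene lists (410 entries) and 13 families taken by symbol were counted by direction; 6 genes of other families, matched only by an older synonym, were left out by their identity. Members and lists were chosen with earlier results of these data known. Named genes are the brassinosteroid synthesis list, BZR1, BIN2 and ABI5, the 12 largest rises and 12 largest falls past q with 10 FPKM in the higher group, the 8 highest genes per direction that changed 2-fold, per list up to 4 members with the largest change past q, and list members that did not pass. Further members past q, such as SQD2, IRT1, CCoAOMT1 and PIP2;2, and genes of the families were named after their values were seen. Only the recomputed adjustment was tested on simulated data, which does not bear on the deposited q behind the calls. Alternatives were other filters, pseudocounts, thresholds, centring and a recomputed adjustment. Python 3.11.15 and pandas 2.3.3 were used.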

Additional observations from a re-analysis of the deposited data

How the results depend on the processing

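Leaving out each library and fitting a replicate block were not run, since the table holds 1 value per group. No paired analysis was possible because the columns carry no replicate and the calls are those of the authors' deposited table. The counts of 2368 rises and 2546 falls rest on the deposited q and the direction, which the 2 other pseudocounts cannot change. Centring, a shift by the median of -0.01, left both counts unchanged as well. The counts kept within 1.5 times under all filters, a recomputed Benjamini-Hochberg adjustment (2389 and 2572) and q under 0.01 (1676 and 1767). Without chromosome 1, a choice made after seeing the data, they were 1612 and 1804, fewer by construction. Requiring a 2-fold change as well gave 746 and 858. Genes changed at least 2-fold, 921 and 1068, became 613 and 642 with 1 FPKM in both groups, 554 and 644 with 5 FPKM in either, and 238 and 390 at 4-fold, and the falls became 1665 with no filter on level; each of these keeps fewer or more genes by construction. The share of promoters with CGTGTG was 9.23% for genes that fell at least 2-fold, and 20.3% for falls and 16.4% for rises in 1000 bases, a window chosen after seeing the data. Of 403 single genes followed, 243 passed q and 45 of these did not pass 0.01. List counts moved by over 1.5 times at q under 0.01 in 25 of 106 cases. The depth behind the values is unknown and limits what can be said of genes near 1 FPKM.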
